A study of Mus musculus with 4 samples.

Results

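The genes described here encode glycosyltransferases and sulfotransferases that build mucin and other glycan chains, measured in the gastric corpus epithelium of mice after high-dose tamoxifen. Members were taken by name: a probe set with exactly 1 platform gene symbol starting with Galnt, B3gnt, B3galt, B4galt, B4galnt, Gcnt, St3gal, St6gal, St8sia, Gal3st or Chst, or with Fut and a digit, or equal to A4gnt. This gave 93 genes of the 18193 on the array, read by 183 probe sets, and where a gene had several, the one with the highest average stood for it. The names are those of enzyme families, so the set also holds enzymes of glycolipids, N-linked chains and chondroitin sulfate, and a pseudogene (Fut4-ps1). All 4 arrays held RNA of wild-type mice, 6 weeks old at treatment, and the strains used were FVB/N, C57BL/6 and BALB/c, with no label that assigns 1 to an array. The groups were vehicle (sunflower seed oil with 10% ethanol) at 2.5 days and tamoxifen (5 mg per 20 g of body weight, into the peritoneum) at 12 hours and at 2.5 and 4.5 days. Injections ran for 1 or 3 days, with no label that ties a schedule to an array. Each array held RNA pooled from 3 mice, so with 1 array a group there is no replicate error, and no test across samples was possible. The treatment was given to induce SPEM (spasmolytic polypeptide-expressing metaplasia), in which corpus glands carry transcripts of mucous neck cells, and the question is how the enzymes that decorate mucus differed along the way.

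Mucins are proteins whose serines and threonines carry dense O-linked sugar chains. A chain starts when a Galnt enzyme adds N-acetylgalactosamine to the protein. Other enzymes then lay down the core, branch it (Gcnt), lengthen it with alternating N-acetylglucosamine (B3gnt) and galactose (B4galt, B3galt), and cap it with fucose (Fut), sialic acid (St3gal, St6gal, St8sia), N-acetylgalactosamine (B4galnt), sulfate (Gal3st, Chst) or, in gland mucous cells, alpha1,4-linked N-acetylglucosamine (A4gnt). In the stomach the surface cells make Muc5ac mucin and the mucous neck cells make Muc6 mucin, and each carries its own caps.

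Levels are log2 values from RMA, a method that corrects background and sets the arrays to 1 common distribution, and a difference of 1 on this scale is 2-fold. A gene was called higher or lower at 2-fold or more if the brighter of the 2 arrays reached its own median over all probe sets, which lay between 5.30 and 5.34. The epithelial markers Cdh1, Epcam, Krt8, Krt18, Krt19 and Krt20 all passed this filter in the 3 comparisons, and the surface markers Muc5ac and Tff1 were at 13.31 to 13.78 and at 14.73 to 14.76. The smooth muscle marker Acta2 and the fibroblast marker Col3a1 were at 13.71 and 13.08 in vehicle, so the values are not those of epithelium alone. The 12-hour array stood apart, since all 9 measured pancreatic acinar markers were called higher there, with a median difference of 7.17, and 7 of 9 squamous markers were called lower, with a median of -5.32. Parietal markers were called lower in 7 of 10, 8 of 10 and 7 of 10 at 12 hours and at 2.5 and 4.5 days. Chief cell markers were called lower in 1, 5 and 6 of 7, with 1, Rnase1, called higher at 12 hours. Rnase1 was at 9.19 in vehicle, 11.49 at 12 hours, 4.67 at 2.5 days and 5.69 at 4.5 days. The part of the acinar shift in its 12-hour value was not tested. Mucous neck and SPEM markers were called higher in 0, 4 and 6 of 10, with 1 called lower at 12 hours, and macrophage markers were called higher in 1, 4 and 1 of 8. Of the intestinal lists, goblet markers were called lower in 0, 3 and 2 of 6, with 1, Zg16, called higher at 12 hours. Enterocyte markers were called lower in 1, 2 and 2 of 8. Among those 8 is Pdgfb, a growth factor gene that entered the list through a shared name and was not called. Smooth muscle markers had medians of -0.35, -0.62 and -0.61 with 0 of 7 called. Over all expressed genes 0.996% to 3.8% were called in a direction against vehicle, at which lists of 6 to 10 genes would hold few calls or none. The part of these shifts in the differences below was not tested, and in pooled tissue fewer cells of a type and less RNA per cell cannot be told apart. The spread of differences over expressed genes, as a robust SD, was 0.27, 0.35 and 0.39 for the comparisons with vehicle and 0.15 between the 2.5-day and 4.5-day arrays, whereas 18 hybridisation controls differed from vehicle by a mean of 0.04, -0.13 and -0.16, with an SD of 0.10, 0.08 and 0.08 and a largest size of 0.21, 0.31 and 0.29.

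Most enzyme genes, like most expressed genes, lay near vehicle. Fut9, B4galnt2, B3galt5 and A4gnt were the members called lower at any time, and none was called higher. Of the 93 members, 66, 68 and 66 passed the filter at 12 hours and at 2.5 and 4.5 days, 4 each time through 1 array alone, and none of those 4 was called. At 12 hours 3 of 66 (4.55%) were called lower and 0 higher, beside 1.92% lower and 0.996% higher over all expressed genes. At 2.5 days 3 of 68 (4.41%) were called lower and 0 higher, beside 1.94% and 3.32%. At 4.5 days 3 of 66 (4.55%) were called lower and 0 higher, beside 2.72% and 3.8%. With 3 genes at each time, a shift of 1 or 2 genes would bring the share called lower near that of all genes. Likewise, at the shares over all genes, 66 or 68 members would hold few calls for higher. The median difference of the members that passed was 0.04, -0.07 and -0.06, beside -0.04, 0.02 and -0.0050 over all expressed genes, and over all 93 members it was 0.03, -0.08 and -0.05. At 2.5 and 4.5 days these medians were smaller in size than the mean offset of the hybridisation controls. Differences under 0.5 in size made up 80.3%, 76.5% and 75.8% of the members that passed, beside 87.8%, 79.3% and 75.5% of all expressed genes. The 3 comparisons share the vehicle array, so a value peculiar to that array enters each of them. Vehicle was taken at 2.5 days alone. At 12 hours and 4.5 days tamoxifen and the time of collection therefore both differ from vehicle and cannot be told apart.

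**Figure D1:**
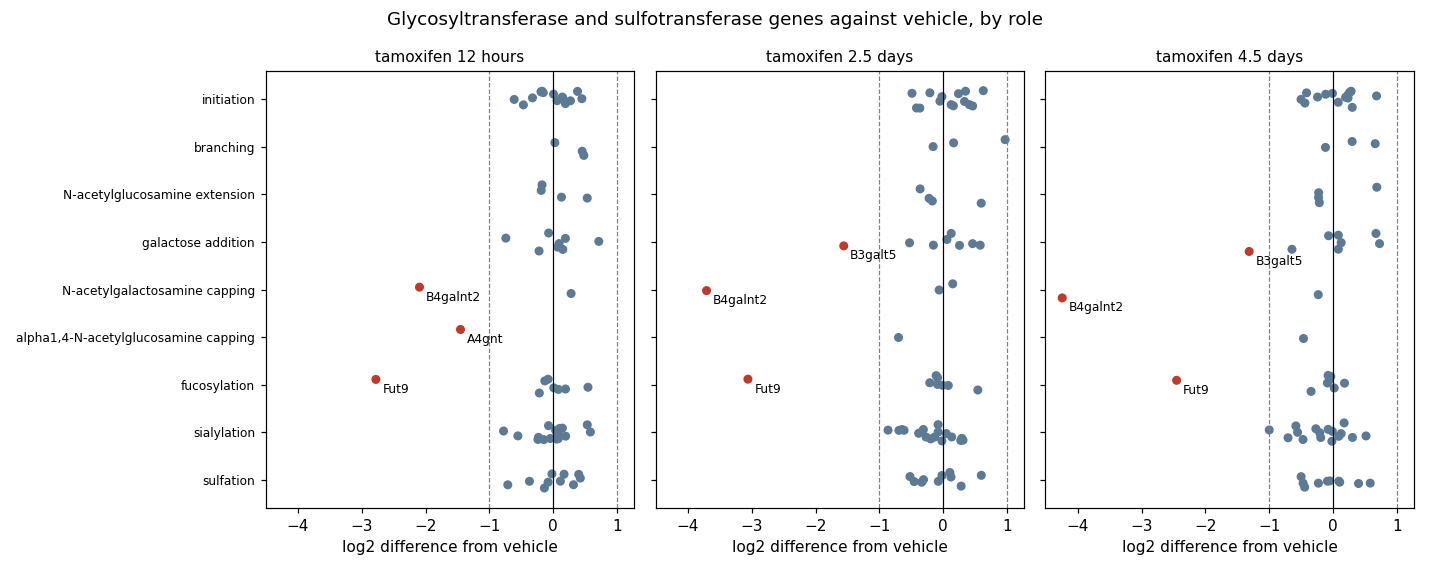
Log2 difference from vehicle (x axis) of every member that passed the filter, by role (y axis), with 1 panel for each tamoxifen array; each point is 1 gene, dashed lines mark 2-fold, and red points are called. The called points are all on the left, B4galnt2 and Fut9 in every panel, A4gnt at 12 hours and B3galt5 at 2.5 and 4.5 days.

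B4galnt2 transfers N-acetylgalactosamine in beta1,4 linkage to sialylated galactose ends and so makes the Sda (Cad) antigen of the gut. Its level was 9.66 in vehicle, 7.56 at 12 hours, 5.95 at 2.5 days and 5.41 at 4.5 days. Each later array was lower than the one before, and the last lay just above the array median. Against vehicle the differences were -2.10, -3.71 and -4.24, or 4.28-fold, 13.1-fold and 19.0-fold lower, where RMA compresses differences of dim genes. At 2.5 days it ranked 4 from the lowest among 12295 expressed genes, and at 4.5 days 5 from the lowest among 12303. Of its 4 probe sets, 3 passed the filter at all times, and all 3 were more than 2-fold lower in each comparison, by -2.10 to -1.12 at 12 hours, -3.71 to -1.55 at 2.5 days and -4.24 to -1.69 at 4.5 days. The dim one gave 0.02, -0.20 and -0.15. Over the same arrays the summed level of the 8 genes listed as enterocyte markers was 11.58, 11.24, 10.81 and 10.61 on the log2 scale. Pdgfb, the growth factor gene among them, was at 7.39, 7.57, 7.20 and 7.21, and the sum and medians include it. Apoa4, an intestinal apolipoprotein gene, was at 9.51, 7.59, 6.23 and 6.59. Apoa4 had the largest decrease of the 8 at each time, while their median difference from vehicle was -0.07, -0.12 and -0.21. At 2.5 days Anpep differed by 0.11 and Alpi by -0.05. The summed level of the 6 goblet markers was 13.97, 14.19, 13.11 and 13.46, and their median difference from vehicle was -0.06, -0.77 and -0.43. Agr2, the brightest of them in vehicle, was at 12.82, 12.13, 12.41 and 12.69. Zg16 was at 11.37, 12.81, 10.24 and 10.63. Its call for higher at 12 hours is on the array with the acinar shift, whose part in that value was not tested. Fcgbp, a mucus protein gene, was at 10.04, 9.83, 8.22 and 8.32, and Muc2, the goblet mucin, was under the array median on all 4. The part of either list in the values of B4galnt2, or of B3galt5 below, was not tested. The 250 bases before the gene start are shown because B4galnt2 had the largest decrease and RefSeq gives it 1 start (GRCm38.p6, chr11:95914872-95915121, minus strand), with capitals marking a GC box.
B4galnt2: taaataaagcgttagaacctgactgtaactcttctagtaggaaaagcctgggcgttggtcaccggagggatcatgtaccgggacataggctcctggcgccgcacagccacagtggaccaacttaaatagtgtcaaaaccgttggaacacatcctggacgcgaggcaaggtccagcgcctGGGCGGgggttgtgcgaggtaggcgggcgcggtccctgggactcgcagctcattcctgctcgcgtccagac
The window holds the GC box GGGCGG starting 71 bases before the gene start and was 58.4% G and C. Searched on both strands, the GC box was in 32.7% of the 32851 RefSeq windows of this length. The other motifs searched were not in this window: the TATA box, spelled TATAAA, is in 12.4% of all windows, the CCAAT box in 33.8%, a GATA motif, spelled AGATAA, in 9.99%, and a nuclear receptor half-site, spelled AGGTCA, in 14.0%. None of these motifs overlaps another. A match is a description of letters, and none was tested for binding here.

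Fut9 encodes an alpha1,3-fucosyltransferase that makes the Lewis x structure. Its level was 9.19 in vehicle, 6.41 at 12 hours, 6.13 at 2.5 days and 6.73 at 4.5 days. The 3 tamoxifen arrays lay far below vehicle, and the 4.5-day array was 0.61 above the 2.5-day array. The differences were -2.78, -3.06 and -2.45, or 6.87-fold, 8.34-fold and 5.47-fold lower, with ranks of 40, 12 and 29 from the lowest. Of its 3 probe sets 1 passed the filter. Both dim ones were also below vehicle, by -1.90 and -0.78 at 12 hours, -2.05 and -1.37 at 2.5 days and -1.87 and -1.15 at 4.5 days. Thus the difference at 12 hours was already about as large as the later ones for Fut9, whereas for B4galnt2 it was smaller than the later ones. The step from 12 hours to 2.5 days, which does not use vehicle, was -0.28 for Fut9 and -1.61 for B4galnt2. Fut9 has no promoter window in the RefSeq table used here.

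B3galt5 encodes a beta1,3-galactosyltransferase that makes type 1 chains, the base of the Lewis a and Lewis b antigens. Its level was 8.37 in vehicle, 7.63 at 12 hours, 6.81 at 2.5 days and 7.06 at 4.5 days. The differences were -0.74, -1.56 and -1.31, and those at 2.5 and 4.5 days were called, at 2.94-fold and 2.49-fold lower. This call rests on 1 of 4 probe sets. The other probe set above the array median in all comparisons gave -0.10, -0.78 and -0.48, and a further one that passed at 4.5 days alone gave 0.42. With the mean of all probe sets the differences at 2.5 and 4.5 days were -0.75 and -0.45, under 2-fold. RefSeq gives this gene 3 starts on chromosome 16, so no window is printed. Of those 3 windows 1 holds the half-site spelled above, read on the other strand, and none of them holds another of the motifs searched.

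A4gnt adds the terminal alpha1,4-linked N-acetylglucosamine that marks the mucus of mucous neck cells. Its level was 9.40 in vehicle, 7.94 at 12 hours, 8.70 at 2.5 days and 8.94 at 4.5 days. It was lowest at 12 hours, and each later array was nearer to vehicle. The differences were -1.46, -0.70 and -0.46, and the first was called (2.75-fold lower). The step from 12 hours to 2.5 days was 0.76. Only 1 probe set reads this gene. The array with the lowest A4gnt is the one with the acinar and squamous shifts given above, and their part in the value was not tested. Over the same arrays Tff2, which encodes spasmolytic polypeptide, was at 14.10, 14.02, 13.86 and 14.04, and 2 other mucous neck and SPEM markers differed widely: Cftr, a chloride channel gene, was at 6.52, 5.38, 7.67 and 8.90, and Gpx2, a glutathione peroxidase gene, was at 10.51, 10.72, 11.90 and 12.65. Both were above vehicle at 2.5 and 4.5 days, where A4gnt was below it. They had the 2 largest increases of the 10 measured markers at 4.5 days, whereas Sox9 differed by 0.13 and 0.31. The 4.5-day difference of A4gnt was near the robust SD of expressed genes, 0.39, and ranked 1524 from the lowest among 12303. The 250 bases before the gene start are shown because A4gnt is the neck cell enzyme of the set (GRCm38.p6, chr9:99612252-99612501, plus strand), with capitals marking a GATA motif and a CCAAT box.
A4gnt: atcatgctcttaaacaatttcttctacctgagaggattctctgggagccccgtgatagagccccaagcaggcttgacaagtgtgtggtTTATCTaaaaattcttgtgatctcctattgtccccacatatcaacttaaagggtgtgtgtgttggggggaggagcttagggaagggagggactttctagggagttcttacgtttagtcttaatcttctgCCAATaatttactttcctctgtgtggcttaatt
The GATA motif, read on the other strand, starts 162 bases and the CCAAT box 33 bases before the gene start, and the TATA box, half-site and GC box spelled above are not in the window. At 43.6% G and C it lay below the median of all windows, 52.4%, whereas the windows of members had a median of 59.6% over 93 windows of 71 genes.

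**Figure D2:**
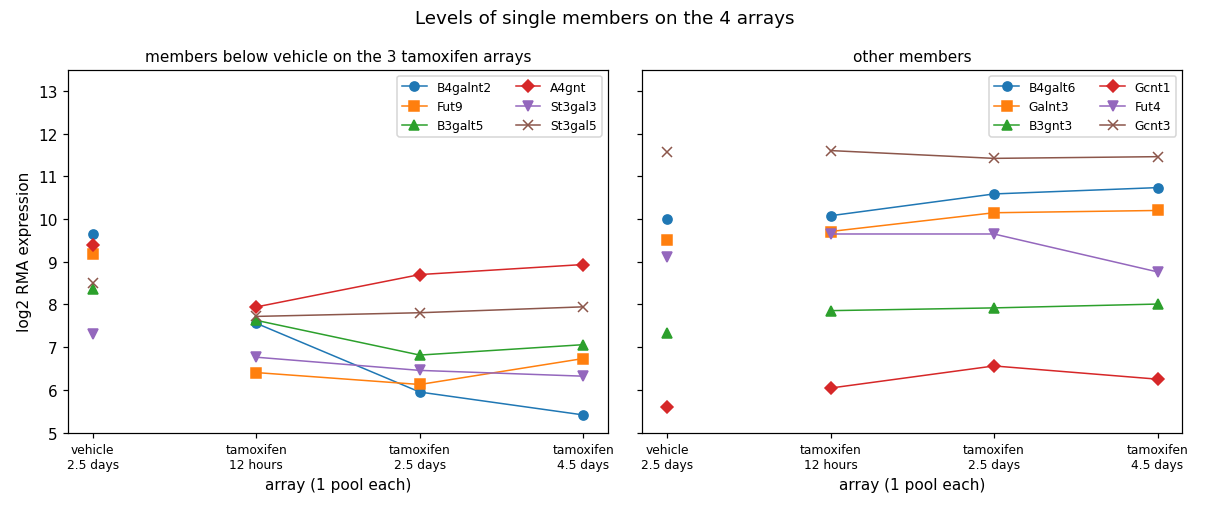
Log2 RMA expression (y axis) of 12 members on the 4 arrays (x axis), each point 1 array of a 3-mouse pool, with lines joining the tamoxifen arrays. B4galnt2 goes down from array to array to 5.41, Fut9 is low on all 3 tamoxifen arrays, A4gnt is lowest at 12 hours, and Gcnt3 lies between 11.42 and 11.61.

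Among the 20 sialylation genes none was called. At the shares called over all expressed genes, 0.996% to 3.8% in a direction, 20 genes would hold few calls or none. The alpha2,3-sialyltransferases differed among themselves in direction. The lowest difference belonged to St3gal5 at 12 hours and to St3gal3 at 2.5 and 4.5 days. St3gal3, which sialylates galactose ends of N-linked and type 1 chains, was at 7.32 in vehicle, 6.76 at 12 hours, 6.46 at 2.5 days and 6.32 at 4.5 days. Its differences were -0.55, -0.86 and -0.999, and the last was just short of a call. Its second probe set was dim and gave -0.06, -0.23 and -0.24. St3gal5, the synthase of the ganglioside GM3, was at 8.50, 7.72, 7.81 and 7.95, with differences of -0.78, -0.69 and -0.55. Its other probe set gave larger ones, -0.94, -1.42 and -1.15, so the mean of both would be called at 2.5 days (-1.06). St3gal6 differed by -0.23, -0.64 and -0.70, and the other 2 probe sets above the median by -0.63 to -0.37 over the 3 comparisons. St3gal2 differed by 0.09, -0.61 and -0.27. Going the other way in the same family, St3gal1 differed by 0.08, 0.13 and 0.09 and St3gal4 by -0.04, 0.31 and 0.31, both at levels near the array median. Outside it, St6gal2 was at 6.64, 7.17, 6.56 and 6.06, with a difference of -0.58 at 4.5 days. St8sia6, a sialyltransferase that adds alpha2,8-linked sialic acid, was at 9.07, 9.22, 9.37 and 9.59. St6galnac2, which adds sialic acid to the first sugar of O-linked chains, was at 8.81, 8.85, 8.43 and 8.34. The median over the sialylation genes that passed was 0.04, -0.13 and -0.13.

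**Figure D3:**
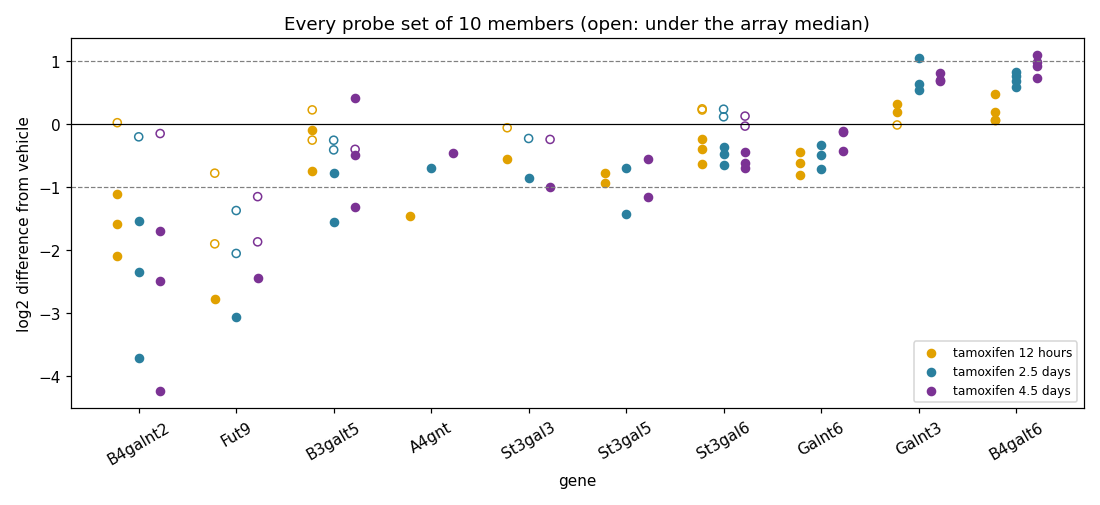
Log2 difference from vehicle (y axis) of every probe set of 10 members (x axis), in 3 colours for the tamoxifen arrays; filled points are probe sets past the filter, open ones are under it, and dashed lines mark 2-fold. The 3 filled probe sets of B4galnt2 lie below -1 at all times, all 4 of B4galt6 lie above 0, and those of B3galt5 spread from -1.31 to 0.42 at 4.5 days.

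None of the enzymes that start or branch O-linked chains was called. At the shares called over all expressed genes, 0.996% to 3.8% in a direction, groups of this size would hold few calls or none. Of 18 Galnt genes 14 passed the filter, and their differences ran from -0.61 to 0.45 at 12 hours, -0.49 to 0.63 at 2.5 days and -0.50 to 0.68 at 4.5 days. Galnt7, which acts on peptides that already carry a sugar, was at 11.54, 11.69, 11.78 and 11.80, and Galnt4 at 11.03, 10.84, 11.01 and 11.02. The highest and lowest of the group were Galnt3 and Galnt6 at 2.5 days. Galnt3 was at 9.52, 9.71, 10.15 and 10.20, and its 3 probe sets gave 0.54 to 1.06 at 2.5 days and 0.68 to 0.81 at 4.5 days. Galnt6 was at 9.03, 8.42, 8.55 and 8.92, and its 3 probe sets were all lower at 12 hours, by -0.80 to -0.45. Gcnt3, the mucin-type core 2 and core 4 branching enzyme, differed by 0.03, -0.16 and -0.12. Gcnt1, another core 2 enzyme, was at 5.59, 6.04, 6.56 and 6.25, and its 0.97 at 2.5 days was the nearest of all members to a call for higher. Its level was close to the array median and its other probe set was dim. Gcnt2, the I-branching enzyme, was at 7.35, 7.83, 7.51 and 7.65, but its probe sets disagreed in direction. The other one past the filter differed by -0.33, -0.29 and -0.34, and the mean of all 8 put the 12-hour difference at 0.10 in place of 0.48.

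Among the chain extension genes past the filter B3gnt3, B4galt1, B4galt3, B4galt5, B4galt6 and B3galt6 lay above vehicle on all 3 tamoxifen arrays, by less than 2-fold. Of these, B3gnt3, B4galt5 and B4galt6 alone passed 1.5-fold, all 3 of them at 4.5 days. B3gnt3, which extends core 1 chains, was at 7.32 in vehicle, 7.86 at 12 hours, 7.92 at 2.5 days and 8.01 at 4.5 days, while B3gnt2, the main poly-N-acetyllactosamine enzyme, was at 9.38, 9.51, 9.21 and 9.17. B4galt6, which makes lactosylceramide, was at 10.01, 10.08, 10.59 and 10.74. All 4 probe sets of B4galt6 were above vehicle, by 0.58 to 0.83 at 2.5 days and 0.73 to 1.10 at 4.5 days, with 1 of the 4 past 2-fold at the latter. B4galt5, its close relative, differed by 0.71, 0.46 and 0.67. B4galt1, the widely used galactosyltransferase of lactosamine chains, was at 10.35, 10.50, 10.60 and 10.47. Of the 9 B3gnt genes 4 passed the filter, and B3gnt6, the core 3 enzyme, was under the array median on all 4 arrays.

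Apart from the genes above, no capping gene was called. Fut2, the alpha1,2-fucosyltransferase of secreted mucus, was at 9.75, 9.67, 9.83 and 9.93, and Fut8, which adds the core fucose of N-linked chains, at 9.54, 9.73, 9.53 and 9.45. Fut4, an alpha1,3-fucosyltransferase like Fut9, was at 9.11 in vehicle, 9.65 at 12 hours, 9.65 at 2.5 days and 8.76 at 4.5 days. Fut4 thus lay above vehicle at 12 hours and 2.5 days and below it at 4.5 days, whereas Fut9 was below vehicle on all 3 tamoxifen arrays. The second probe set of Fut4 was dim and gave -0.14, 0.20 and 0.22, and whether the pseudogene Fut4-ps1 shares signal with it was not tested. B4galnt1, which builds the gangliosides GM2 and GD2, was at 9.87, 10.15, 9.81 and 9.64, in contrast to B4galnt2. Of 17 sulfation genes 10 passed the filter and none was called, with differences from -0.71 (Chst4 at 12 hours) to 0.60 (Chst11 at 2.5 days). A count of 0 among 10 genes is near the shares over all expressed genes, 0.996% to 3.8% in a direction. Gal3st1, which sulfates galactosylceramide, was at 9.86, 9.73, 9.41 and 9.40, and Chst15, a chondroitin sulfotransferase, at 7.91, 8.23, 7.84 and 7.83.

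The steps between tamoxifen arrays do not use vehicle. The first step uses the 12-hour array, which had the acinar and squamous shifts given above, and their part in it was not tested. From 12 hours to 2.5 days 1 of 67 members was called lower (B4galnt2) and 0 higher, beside 0.655% lower and 2.58% higher of all expressed genes. B3galt5 came next at -0.81, and A4gnt (0.76) and Gcnt1 (0.52) had the largest increases. From 2.5 to 4.5 days 0 of 67 were called in either direction, beside 0.182% lower and 0.248% higher. In this closest pair the largest difference was that of Fut4, -0.89, which ranked 35 from the lowest among 12117 expressed genes. Fut9 had the largest increase, 0.61, and B4galnt2 went on down by a difference of -0.54.

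The genes that supply the enzymes are given by their values, since at the shares called over all expressed genes (0.996% to 3.8% in a direction) lists of 11 to 24 genes would hold few calls or none, and a count of 0 sets no list apart. Of 23 measured genes for donor sugars and sulfate 0 were called at any time, with medians of -0.08, 0.11 and 0.13. Within that list Ugp2, which makes UDP-glucose, was at 11.24, 11.50, 11.77 and 11.88, and Gfpt1, which opens the hexosamine pathway, at 10.96, 10.42, 10.97 and 11.21. Of 13 Golgi transporters 0 were called, with Slc35c1, the GDP-fucose carrier, at 9.03, 9.07, 9.50 and 9.68. Of 24 other glycan chain transferases 0 were called, among them C1galt1, the core 1 enzyme, at 10.61, 10.60, 10.73 and 10.64. Of 11 measured genes on the list of glycan degrading enzymes, which also holds the sugar kinase Nagk, 0 were called. Gusb, a lysosomal glucuronidase, came nearest with differences of 0.20, 0.82 and 0.96. Among 12 measured mucin and trefoil genes 1 was called, Muc16, a membrane mucin, at 1.10 at 4.5 days. Muc16 passed the filter on the 4.5-day array alone, at 5.76 against 4.65 in vehicle. Muc5ac, the surface cell mucin, differed by -0.01, -0.47 and -0.37, and Tff3, a trefoil peptide of goblet cells, by 0.99, -0.07 and -0.16, the first on the array with the acinar shift.

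**Figure D4:**
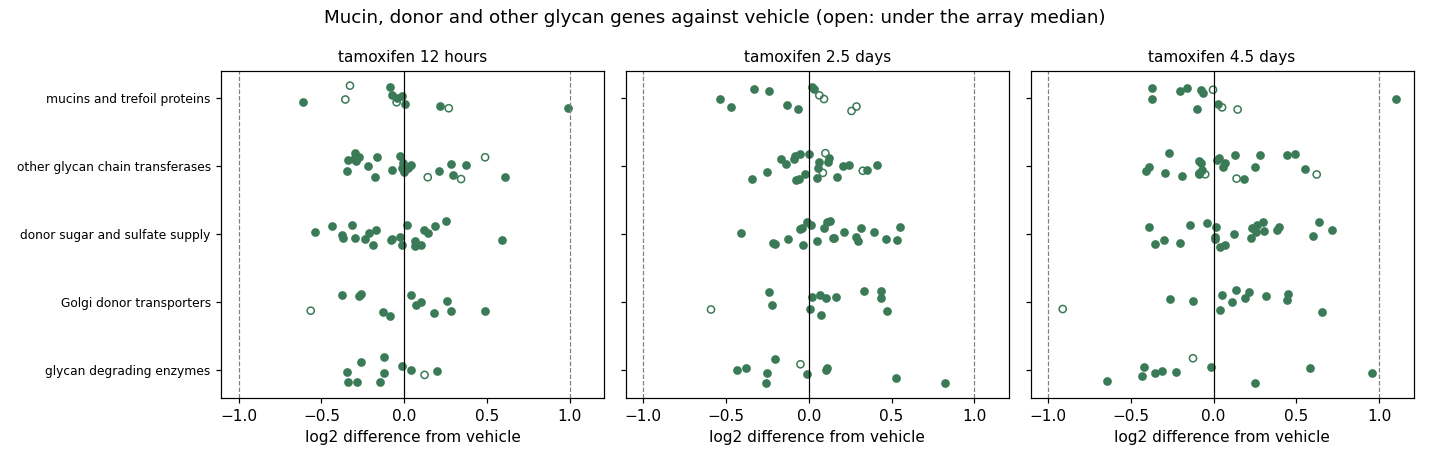
Log2 difference from vehicle (x axis) of the genes of 5 related lists (y axis), with 1 panel for each tamoxifen array; filled points passed the filter, open ones did not, and dashed lines mark 2-fold. Filled points lie within 2-fold apart from Muc16 at 4.5 days (1.10).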

How the data were processed

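Expression was measured on Affymetrix mouse arrays, 1 for each of 4 groups taken from the titles in the labels. The authors deposited log2 values for 45101 probe sets. Per the submitters' processing notes, RMA and Partek were used, with no version given. The log base was inferred from the values (2.06 to 14.85). Because RMA equalises the distributions of arrays, it removes any change common to most genes. Probe sets were named through the platform annotation; 34945 had exactly 1 symbol and were no controls, 3 with several symbols that include a member's were not used, and all 93 members matched the current annotation by gene ID. For a gene with several probe sets, the one highest on average was used. Muc6 and Gal3st4 were not analysed here.

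Differences of log2 values were taken with pandas 2.3.3. A call needs 2-fold and the brighter array at or above its own median (50th percentile). The number of arrays limits the precision. The members and lists were chosen with earlier results of these data known. The genes named are the members called, the 2 brightest of each role in vehicle, the nearest to the threshold, A4gnt, B4galnt2 and Gcnt3, and called or bright genes of the related lists. Other genes named, such as Cftr, Gpx2, Gfpt1, Ugp2, Slc35c1, Tff3, Chst4, Chst11 and B3gnt6, were chosen after their values were seen. Promoter windows are from RefSeq, GRCm38.p6.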

Additional observations from a re-analysis of the deposited data

Results flagged for a closer look

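The difference between time points was not tested for either gene here. St6gal2, a sialyltransferase of lactosamine ends, lay above vehicle at 12 hours and below it at 4.5 days, with levels of 6.64, 7.17, 6.56 and 6.06 in vehicle and at 12 hours, 2.5 and 4.5 days. The 12-hour difference exceeded the 4.5-day one by 1.12. Galnt15, an initiating enzyme, had levels of 6.60, 6.98, 6.55 and 6.19, and its 2 differences lay 0.79 apart. Its other probe set was at 0.99 at 12 hours and, under the filter, at -0.18 at 4.5 days. Both were taken up because their differences at these times had opposite signs and each exceeded the robust SD of expressed genes.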

How the results depend on the processing

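At a 1.5-fold threshold 7, 8 and 6 members were lower at 12 hours and at 2.5 and 4.5 days, and 1, 4 and 5 were higher. When the probe set of middling absolute difference stood for each gene 1 member each was called lower at 2.5 and 4.5 days instead of 3, B3galt5 gave 0.42 at 4.5 days, and a dim probe set, under the filter, stood for Fut9. With the filter at the 75th percentile the median at 2.5 days was 0.0259. The other settings (no filter, both centrings, the stricter prefix rule, the mean of all probe sets and, chosen after seeing the data, the mean of those above the median) kept each count within 1.5 times and each median within the SD of the hybridisation controls. Centring arrays on their medians put St3gal3 at -1.01 at 4.5 days, past 2-fold. No paired analysis was possible because each group has 1 array. Levels near the array median, such as Gcnt1 and B4galnt2 at 4.5 days, are limited by signal over background.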
